A study of Drosophila melanogaster with 2 samples.

Results

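The genes described here encode the subunits of RNA polymerase II (Pol II) and the general transcription factors of Drosophila melanogaster, and the question was at which of their promoters the zinc finger protein CG11247 was found. They were chosen by symbol: Polr2A to Polr2L, the numbered Taf genes, the genes of TFIIA, TFIIB, TFIIE and TFIIF, and Tbp, Trf2, hay, Xpd, Tfb1, Ssl1, Tfb4, Cdk7, CycH, Mat1, Cdk9 and CycT. The rule found 47 of 13986 protein-coding genes, made up of 12 of Pol II, 15 of TFIID, 8 of TFIIH and 12 remaining factors. Of the 47 genes, 9 lie on 2L, 8 on 2R, 10 on 3L, 13 on 3R, 6 on X and 1, Taf3, on chromosome 4.

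Pol II transcribes the protein-coding genes, and it finds their promoters with the help of the general factors. TFIID, built of the TATA-binding protein and its associated factors, recognises the core promoter, TFIIA and TFIIB stabilise it and position the polymerase, and TFIIF, TFIIE and TFIIH help to load the enzyme and open the DNA. The kinase of TFIIH then phosphorylates the tail of the largest Pol II subunit, and P-TEFb, the pair of Cdk9 and CycT, releases polymerase that has paused just downstream of the start. Most of these genes serve every cell of the embryo, while Taf12L and TfIIA-S-2 are paralogues of general factors.

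The data are chromatin immunoprecipitation followed by sequencing (ChIP-seq) of whole embryos aged 0 to 24 h, in 1 group of 2 biological replicates. All embryos came from transgenic flies that express CG11247 joined to an enhanced green fluorescent protein (CG11247-eGFP), from an insertion that targets CG11247 per the labels, and the fusion was precipitated with an antibody against GFP from chromatin sonicated to 200 to 800 bp. The labels do not say what drives the transgene or whether the untagged gene remains, they name no other genotype or treatment, and the control experiment they mention was not analysed here. A promoter peak therefore cannot be told apart from background that any antibody would precipitate.

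Each peak of the authors' ranked lists carries an irreproducible discovery rate (IDR), a measure of how well a peak holds its rank between a pair of inputs, and the thresholded lists held peaks with an IDR of at most 0.01. Such peaks are called passing peaks, and a gene is called bound when the summit of a passing peak of the pooled reads lay within 500 bp of any of its transcription start sites (TSS). The pooled list held 4495 passing peaks among 137752 ranked ones, replicate 1 held 3010 among 109282, and replicate 2 held 2695 among 125735. The signal printed for a peak is the score that the authors' caller gave it, so it orders peaks within a list and is not compared between lists. Ranks and percents from the top given here follow that signal. Numbers of reads are unknown, and intervals of shares are Wilson 95% intervals that cover counting error only.

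Of the 47 genes, 14 were bound, which was 29.8% (18.7 to 44.0%), beside 18.6% of all protein-coding genes. The direction turned when a summit counted only for its nearest gene, with 5 of 47, or 10.6% (4.63 to 22.6%), beside 13.9%. The 14 bound genes were Polr2B, Polr2C, Polr2F, Polr2H and Polr2J of Pol II and Taf2, Taf4 and Taf5 of TFIID. The others were Ssl1, Xpd, Tfb4 and CycH of TFIIH, and the general factors TfIIA-L and TfIIB. TFIIH had 4 of 8 genes bound, or 50% (21.5 to 78.5%), and Pol II 5 of 12, or 41.7% (19.3 to 68.0%). TFIID had 3 of 15, or 20.0% (7.05 to 45.2%), and the remaining factors 2 of 12, or 16.7% (4.70 to 44.8%). The intervals of the 4 groups overlapped one another. Those of TFIID and of the remaining factors contained the 18.6% of all genes, and those of Pol II and TFIIH began just above it. With the nearest gene only, Pol II (4.70 to 44.8%) and TFIIH (7.15 to 59.1%) had intervals that contained the 13.9%. The intervals are no test against all genes. Differences between the complexes were not tested.

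The replicates gave similar sets. The list of replicate 1 held 10 of the 47 genes, or 21.3%, beside 13.9% of all genes, and the list of replicate 2 held 13, or 27.7%, beside 13.5% (mean 24.5 ± 4.51%, SD, n = 2). All 10 genes of replicate 1 were also in replicate 2, which added Taf2, CycH and TfIIB. Tfb4 passed with the pooled reads and in neither replicate by itself. The 5 Pol II genes were the same in the pooled list and in both replicates, whereas TFIIH had 2 genes in replicate 1 and 3 in replicate 2.

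**Figure D1:**
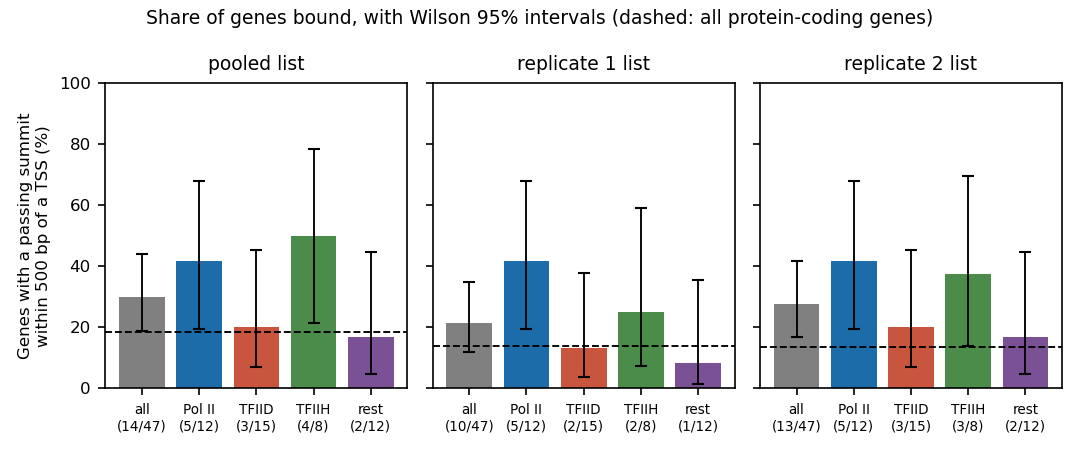
Share of genes with a passing summit within 500 bp of a TSS, in percent, for all 47 genes and for each complex, in the pooled list and in each replicate's own list. Bars start at 0, whiskers are Wilson 95% intervals, the numbers bound and in all stand under each bar, and the dashed line is the share of all protein-coding genes (18.6%, 13.9% and 13.5%). Pol II keeps 5 of 12 genes in each of the 3 lists.

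The sequences under the summits show what kind of DNA these promoter peaks lay on. Shown are 4 peaks of differing strength with a GC content below the median of passing promoter summits (Polr2B, chr3R:14125698-14125790; Polr2C, chr2L:13833116-13833216; Polr2J, chr2L:17410519-17410619; TfIIA-L, chr3R:27253191-27253291), then TfIIB (chr2L:10430922-10431022), which is among the richest in G and C of the bound genes, Tfb4 (chr2L:1150684-1150765), which holds a short BEAF-32 site, and TfIIA-S (chr3R:23891061-23891141), whose peak is described further on. Each is the reference sequence within 50 bp of the pooled summit, cut to the stretch outside annotated exons, 5′ to 3′ on the strand of the named gene, from the RefSeq copy of the dm6 assembly. Capitals mark the reverse complement of the BEAF-32 site CGATA, and a sequence without capitals held none of the motifs searched.
Polr2B: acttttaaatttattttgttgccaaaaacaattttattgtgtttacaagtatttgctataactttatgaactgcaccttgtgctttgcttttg
Polr2C: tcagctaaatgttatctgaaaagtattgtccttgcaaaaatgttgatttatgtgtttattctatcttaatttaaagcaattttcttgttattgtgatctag
Polr2J: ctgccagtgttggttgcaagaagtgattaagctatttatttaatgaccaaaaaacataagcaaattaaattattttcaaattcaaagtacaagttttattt
TfIIA-L: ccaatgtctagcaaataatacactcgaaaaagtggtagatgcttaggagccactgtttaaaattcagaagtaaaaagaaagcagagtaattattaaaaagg
TfIIB: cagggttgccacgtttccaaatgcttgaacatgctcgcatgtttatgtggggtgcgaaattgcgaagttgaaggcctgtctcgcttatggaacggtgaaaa
Tfb4: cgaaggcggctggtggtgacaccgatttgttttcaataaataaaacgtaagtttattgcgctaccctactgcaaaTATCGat
TfIIA-S: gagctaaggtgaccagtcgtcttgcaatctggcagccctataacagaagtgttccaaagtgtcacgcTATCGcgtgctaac

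The GC content of the bound windows varied widely. The median GC content within 50 bp of the summits was 32.7% over the 14 bound genes, beside 38.6% for all passing promoter summits (quartiles 29.7 and 46.5%) and 36.6% for windows at unbound promoters. Taf5 had the lowest value, 15.8%, followed by Xpd at 24.8% and Polr2C and Polr2J at 25.7% each, and Polr2F and TfIIB had the highest, 48.5% each. Of the 14 windows, 5 were above the median of passing promoter summits. Within 100 bp of the summit, on both strands, the DNA replication-related element TATCGATA was in 0 of the 14 windows, where 7.94% of 2079 passing promoter summits and 5.84% of 11346 unbound promoters held it. The M1BP site GGTCACAC (4.14 and 2.92%), the CTCF site AGNNGGCGC (3.42 and 1.81%), the GAGA site GAGAG (23.5 and 22.3%) and the Zelda site CAGGTA (3.80 and 4.36%) were also in 0 of the 14. With 14 windows, a site held by a few percent of promoters can be missed by sampling, and the absence of the letters says nothing of the factor.

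Shorter sites were present in a minority of the windows. The BEAF-32 site CGATA, which is also contained in the longer element TATCGATA, was in 4 windows (Polr2F, Polr2J, Ssl1 and Tfb4), or 28.6%, beside 38.9% of passing promoter summits and 35.6% of unbound promoters. The TATA box TATAAA was in 4 as well (Polr2H, Polr2J, Ssl1 and Taf5), beside 31.0 and 37.9%. The Pho site GCCAT was in 3 (Polr2J, Taf2 and TfIIB), beside 28.5 and 30.2%. The E-box CAGCTG was found in 1 window, at CycH (7.14%, beside 13.7% of passing promoter summits and 10.2% of unbound promoters). Motif 7 was in 1 window, at Tfb4 (beside 12.8 and 3.95%), and Motif 6 in 1, at Taf2 (beside 0.866 and 1.78%), both searched by their usual consensus. With so few windows, 1 more or fewer moves a share by 7.14 percentage points, and no motif is called more or less frequent at these genes.

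Of the Pol II genes, Polr2H carried the strongest peak. Polr2H encodes a small subunit that Pol II shares with Pol I and Pol III, and its peak had a signal of 562.3 in the pooled list, 307.0 in replicate 1 and 244.8 in replicate 2, with ranks of 157 and 160 in the ranked lists of the replicates. The summit lay 141 bp upstream of Polr2H and 15 bp inside the tagged gene itself, since Polr2H and CG11247 are transcribed away from each other from start sites 126 bp apart on 3L. Around CG11247 the lists were richer than elsewhere: within 50 kb there were 16 passing peaks, or 153 per Mb beside 35.1 per Mb over 3L, and the median signal of ranked peaks was 51.9 beside 27.6. The part of the transgene's own DNA in the Polr2H peak was not tested.

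Polr2B, the subunit that forms the active centre together with Polr2A, was next. Its peak had a signal of 346.6, with 230.2 in replicate 1 and 121.2 in replicate 2, and the summit was 43 bp upstream of the TSS (the sequence is shown above). Polr2F, another subunit shared among the polymerases, had 281.0, with 123.8 and 173.1 in the replicates, and its summit, 29 bp upstream, was the closest of all 14 to the start site of its own gene. Both genes were therefore well inside the limits, with −log10 IDR values of 5, the cap of the scale, and 4.65. Polr2C and Polr2J encode the pair of subunits around which the enzyme assembles, and both members of the pair were bound. Polr2J had a signal of 242.0 (169.5 and 85.1 in replicates 1 and 2; summit 163 bp upstream), and Polr2C had 143.3 (73.8 and 77.8; 171 bp upstream).

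The other 7 Pol II genes were not bound, and for most of them the lists hold a weak ranked peak. Polr2A, the largest subunit, had a ranked promoter peak of signal 52.2, which was 11.5% from the top of the pooled ranked list. Polr2E had 68.5 (4.86% from the top) and Polr2I 47.5 (15.3%). The stalk subunits Polr2D and Polr2G had 16.3 and 31.9, Polr2L had 2.6, and Polr2K had no ranked peak within 500 bp of its TSS in any of the 3 lists. For Polr2I and Polr2D no ranked promoter peak was found in replicate 2, and for Polr2L none in replicate 1. By role, the bound subunits were 1 of the largest pair and both of the assembly pair. They also included 2 of the 5 shared with Pol I and Pol III and 0 of the 2 stalk subunits. Over all genes the share bound was 18.6%, and sets this small show no pattern by role. In the assembly pair, the summits of Polr2C and Polr2J both lay nearer to the start of a neighbour.

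TFIIH had the peak with the highest signal among the 47 genes. Ssl1, a subunit of the core that also serves nucleotide excision repair, had a signal of 1272.0 in the pooled list, which was rank 20 of the 4495 passing peaks, and 710.2 and 570.5 in the replicates, at ranks 22 and 26 of their ranked lists. This peak is shared with Chro, whose product Chromator is a chromatin protein, and it lay 187 bp upstream of Ssl1. Xpd, the helicase of the core, had 155.3, with 97.2 and 64.7 in the replicates and the summit 131 bp upstream. Ssl1 and Xpd were the TFIIH genes bound in both replicates.

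The other bound TFIIH genes were close to the limit. CycH, the cyclin of the kinase module, had a signal of 87.9 and a −log10 IDR of 2.54, where 2 is the limit, with 32.2 in replicate 1 and 55.3 in replicate 2, and the summit 55 bp upstream. It lies 93.2 kb from CG11247, and within 100 kb of that gene there were 117 passing peaks per Mb. Tfb4, a core subunit, had 82.0 and a −log10 IDR of 2.30, the lowest of the 14, with 47.5 and 44.6 in the replicates. CycH did not pass in replicate 1, and Tfb4 passed in neither. Not bound were hay, the DNA translocase of the core (13.1% from the top of the ranked list, −log10 IDR 1.14), Tfb1 (47.8), the kinase Cdk7 (49.0) and its assembly factor Mat1 (30.9). Of the genes that the rule took, the core thus had 3 of 5 bound and the kinase module 1 of 3. The share of all genes bound was 18.6%, and only the core genes Ssl1 and Xpd were bound in both replicates.

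In TFIID, Taf5, a scaffold subunit with WD40 repeats, carried the highest signal. It was 385.0 in the pooled list, 254.0 in replicate 1 and 136.5 in replicate 2, at the same place in each, with the summit at -153 bp in the pooled list, -153 bp in replicate 1 and -154 bp in replicate 2. Taf2, a subunit that contacts promoter DNA near the start site, had 137.8 (62.8 and 57.9 in the replicates), and Taf4, another scaffold subunit, had 134.0 (76.3 and 63.5), with its summit 122 bp upstream of an internal start site and 456 bp downstream of the outermost one. Taf5 and Taf4 passed in both replicates, while Taf2 had a −log10 IDR of 0.55 in replicate 1 and 2.70 in replicate 2.

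The 12 other TFIID genes, Tbp among them, were not bound. Tbp, the TATA-binding protein itself, had a ranked peak of 34.7 that lay 483 bp inside the gene. Taf11 came nearest to the limit, with a signal of 71.5 and a −log10 IDR of 1.57, and Taf8 followed with 59.9 and 1.12. Taf10 and Taf10b, paralogues that face each other with start sites 45 bp apart, shared 1 ranked summit of 52.3, so their values are not separate measurements. Taf7 (49.6), Taf9 (23.7) and Taf12 (4.1) had weaker peaks, and Taf7 differed between the replicates, at 2.97% from the top in replicate 1 and 98.9% in replicate 2. Taf1, Taf3, Taf6 and Taf13 had no ranked promoter peak in the pooled list.

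Among the remaining factors, TfIIA-L and TfIIB were bound. TfIIA-L, which encodes the precursor of the larger TFIIA subunits, had a signal of 327.5, with 162.5 in replicate 1 (rank 556) and 162.3 in replicate 2 (rank 383). Its summit was 189 bp upstream of an internal start site and 2129 bp inside the gene as counted from the outermost one, so TfIIA-L was not bound when only outermost starts counted. TfIIB, the bridge between TFIID and the polymerase, had 137.5 (62.6 and 83.4). Its summit was 366 bp upstream, the farthest of the 14, and its −log10 IDR was 0.08 in replicate 1 and 3.35 in replicate 2. TfIIB was thus bound in replicate 2 and in the pooled list, and it was not bound when the distance was limited to 200 bp.

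None of the genes of TFIIE, TFIIF or P-TEFb was bound. TfIIEalpha and TfIIEbeta had ranked peaks of 23.6 and 32.4, TfIIFalpha and TfIIFbeta of 34.7 and 3.5, and CycT of 29.2, while Cdk9 and TfIIA-S-2 had none in the pooled list. Taf12L, a paralogue of Taf12, had 59.9 and a −log10 IDR of 1.08. Trf2, the TBP-related factor known in flies for promoters without a TATA box, such as those of ribosomal protein genes, had a promoter peak of 66.7 that did not pass. A passing peak of 162.4 lay inside Trf2 727 bp from its nearest TSS, so it was counted only when the distance was raised to 1000 bp. CycT likewise held a passing peak of 84.1 within the gene, 2739 bp from the TSS.

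TfIIA-S, the small subunit of TFIIA, was a case of its own. Its promoter peak (chr3R:23891034-23891201) had a signal of 305.7 in the pooled ranked list, at rank 522, with the summit 31 bp upstream of the TSS. Each replicate held it too, with 156.2 in replicate 1 (rank 607) and 163.2 in replicate 2 (rank 378) and −log10 IDR values of 5 in both and 4.88 in the pooled list. By pooled signal it ranked between TfIIA-L and Polr2F, yet it is absent from the pooled thresholded list and from those of both replicates. It is 1 of 151 pooled peaks past the IDR limit, of 4646 in all, that the thresholded list does not hold. The listing that came with the files names an input of the thresholded lists that the ranked ones lack, without saying what it is, and an INE-1 transposable element is annotated within 500 bp of this summit; their part in the absence was not tested. With these peaks counted, 15 of the 47 genes were bound, beside 19.0% of all genes.

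**Figure D2:**
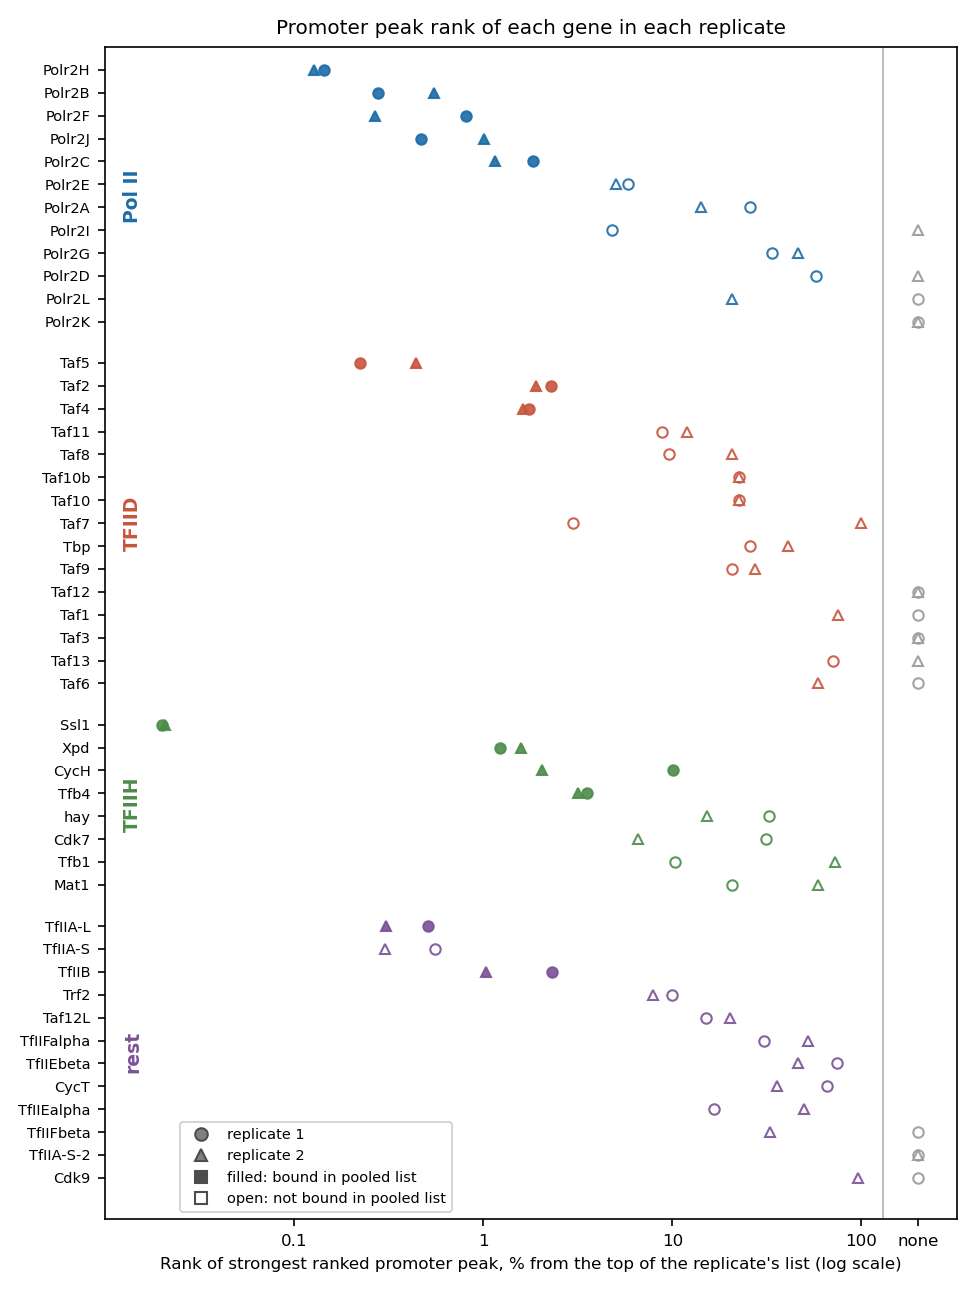
Rank of the strongest ranked peak within 500 bp of a TSS for each of the 47 genes, as percent from the top of the replicate's own ranked list on a log scale, with circles for replicate 1 and triangles for replicate 2. Filled symbols are genes bound in the pooled list, open symbols are genes not bound, and grey symbols under "none" have no ranked promoter peak in that replicate. Ssl1 stands at the far left in both replicates, and the open symbols of TfIIA-S lie among the filled ones.

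Bound and unbound genes formed a graded series near the limit. Just inside it were Tfb4 (−log10 IDR 2.30) and CycH (2.54), then TfIIB (2.86) and Taf2 (2.96). Just outside were Taf11 (1.57), hay (1.14), Taf8 (1.12) and Taf12L (1.08). The others inside had 3.22 at Taf4, 3.35 at Polr2C, 3.43 at Xpd, 4.46 at Polr2J, 4.65 at Polr2F and 4.87 at TfIIA-L, and Polr2B, Polr2H, Taf5 and Ssl1 were at the cap. Of the 33 unbound genes, 26 had a ranked promoter peak, with a median signal of 47.7 beside 38.0 for the 8372 unbound genes of the genome that had one. The nearest passing summit of the unbound genes was 727 to 94581 bp away, with a median of 6466 bp. Over the 40 genes with a ranked promoter peak, 35.0% were bound, beside 23.7% of all such genes.

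The summits of the 14 bound genes all lay upstream of the start site nearest to them. For 12 this was also the outermost start of the gene, and for Taf4 and TfIIA-L it was an internal one. Their median position was -136.0 bp, with a range of -366 to -29 bp, beside a median of -113.0 bp over all 2599 bound genes (quartiles -199.0 and -37.50 bp), of which 84.5% had the summit upstream. The median signal of the 14 was 198.7 beside 150.4, and their median place was 25.9% from the top of the passing list beside 36.3%. The replicates differed in this, with 17.2% beside 40.3% in the list of replicate 1 and 44.8% beside 40.3% in that of replicate 2, so the place was higher than that of other bound genes in replicate 1 and lower in replicate 2. The range within the 14 was wide, from rank 20 at Ssl1 to rank 3738 at Tfb4.

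Most of these summits also lay at the promoter of another gene. For 11 of the 14, or 78.6%, the TSS of another protein-coding gene was within 500 bp of the summit, always on the opposite strand, beside 55.3% of all bound genes. The neighbour was nearer than the Pol II or general factor gene in 9 cases, so that 5 of the 14, or 35.7%, were the nearest gene to their summit, beside 73.5% of all bound genes. Those 5 were Polr2B, Polr2F, Taf4, CycH and Xpd. Polr2F, Taf4 and CycH had no other TSS within 500 bp of the summit. At Polr2B the start of 140up was 200 bp away, and at Xpd that of LSm1, an mRNA decay factor, was 198 bp away.

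The neighbours had varied functions. The summit counted for Taf2 was 2 bp from the TSS of CalpB, which encodes the protease calpain-B, and 77 bp from that of Taf2. The Tfb4 summit was 32 bp from Vps29, a gene of the retromer coat of endosomes, and 57 bp from Tfb4. At Ssl1 the TSS of Chro was 82 bp away, and the start sites of the pair are 105 bp apart, with the summit inside Chro. TfIIB shared its summit with Bug22 (54 bp), known in flies for cilia, and TfIIA-L with pll (59 bp), the kinase Pelle of the Toll pathway. The Polr2C summit was 61 bp from PolG2, of the mitochondrial DNA polymerase, and from GatC, whose transcripts start at the same place, and the Polr2J summit was 72 bp from CG15141. Taf5 and Pex6, a peroxisome gene, were about equally far, at 153 and 148 bp. Peak lists cannot tell which gene of such a pair a bound protein acts on.

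**Figure D3:**
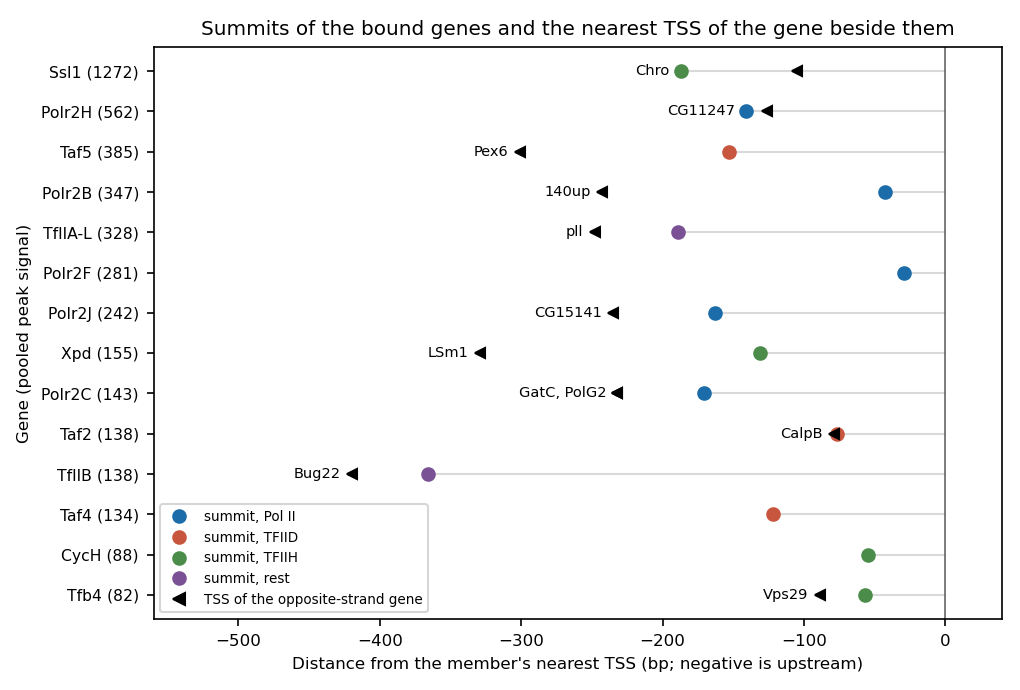
Summits of the 14 bound genes, sorted by pooled peak signal (in brackets), as distance in bp from the nearest TSS of the named gene, with negative values upstream. Coloured dots are summits by complex, and black triangles are the TSS of the opposite-strand gene within 500 bp of the summit. All dots lie left of 0, between -366 and -29 bp, and 11 of the 14 genes have a triangle.

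Head-to-head arrangement was frequent among the 47 genes as a whole. For 29 of them, or 61.7%, another protein-coding gene started on the opposite strand at most 1000 bp upstream, beside 36.2% of all genes. Of these 29, 12 were bound, or 41.4%, beside 32.4% of all head-to-head genes. Of the other 18 genes 2 were bound, Polr2F and CycH, or 11.1%, beside 10.8% of all other genes. Over the 47 genes together the share was 29.8% beside 18.6%. The part of promoter arrangement in this difference was not tested. Head-to-head genes that were bound numbered 4 of 7 in Pol II, 3 of 12 in TFIID, 3 of 5 in TFIIH and 2 of 5 among the remaining factors. At Taf4 the neighbour that starts within 1000 bp faces the outermost start, while the peak lay at an internal one. At TfIIA-L the closest such neighbour, TTLL6B, also faces the outermost start, but pll faces the internal start where the peak lay. This division was made after the data were seen.

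**Figure D4:**
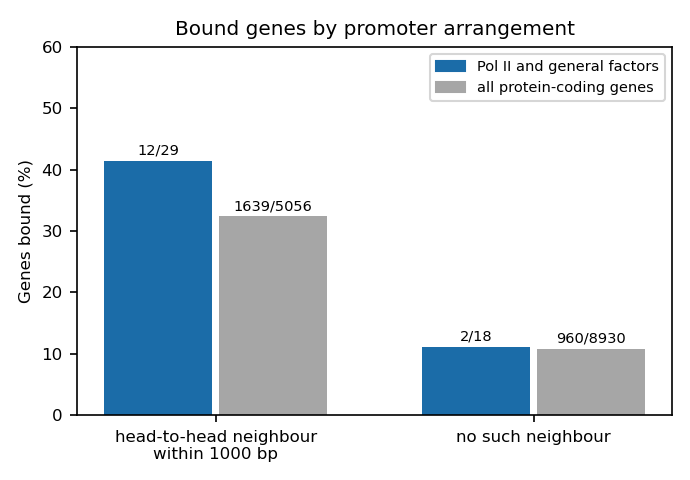
Share of genes bound in the pooled list, in percent, for the 47 genes (blue) and all protein-coding genes (grey), divided by whether another gene starts on the opposite strand at most 1000 bp upstream. Numbers bound and in all stand above the bars, which start at 0. The blue and grey bars are 41.4 and 32.4% on the left and 11.1 and 10.8% on the right.

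The number of bound genes moved with the rule for a bound promoter, and so did that of all genes. The conservative list, made from the true replicates, held 13 of the 47, all but CycH, beside 17.3% of all genes. The stronger 50% of the passing peaks left 12, beside 12.1%. A limit of 200 bp gave 13, beside 13.7%, and 1000 bp gave 15, beside 21.9%. Peaks that cover a TSS gave 9, beside 11.0%. The outermost 5′ end of each gene gave 13, beside 16.6%, and an IDR limit of 0.05 on the ranked list gave 16, with Taf11 and TfIIA-S added, beside 23.5%. With the nearest gene only, as given above, 5 were left, a share below that of all genes.

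Other genes of the transcription machinery were looked up in the same list, by symbols picked for their roles with earlier results of these data known. Of 36 symbols looked for, 30 were found in the annotation, and 13 of them were bound, or 43.3% (27.4 to 60.8%), beside the 18.6% of all genes. Because the symbols were picked in this way, the interval is no test against all genes. All 4 genes of NELF, the factor that holds paused polymerase near the start site, were bound, with signals of 488.6 at Nelf-E, 416.9 at TH1, 262.8 at Nelf-A and 83.4 at NELF-B, which passed in neither replicate by itself. The gene mrn, a further subunit of the TFIIH core, had 464.4, and Cdk12, a kinase of the Pol II tail, had 200.0. Of the elongation factors, EloB (176.3), Ctr9 (158.8), EloA (144.5), spt4 (136.5), dre4 (132.5), lilli (120.8) and Spt6 (82.0) were bound. Of the 13, 10 passed in both replicates, and 11 had another gene's TSS within 500 bp of the summit. All 4 NELF genes were among these 11. With the nearest gene only, the share of the Pol II and general factor genes fell below that of all genes. Whether the share in this list would fall in the same way was not tested. Not bound were 17, among them Spt5, TfIIS, Hexim, Su(Tpl), ear, CycK, Fcp1, Rtf1, hyx, Ssrp, EloC, Tfb5 and Trf, and also nht, can, mia and sa, the testis paralogues of TAF genes. Of the genes found, the Paf1 complex thus had 1 of 3 bound, Elongin 2 of 3 and FACT 1 of 2. The symbol Paf1 itself was not found in the annotation.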

How the data were processed

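ChIP-seq peak lists of CG11247-eGFP in 2 biological replicates were used as the authors deposited them on dm6. Peak signals are a deposited score of unstated scale. The ranked lists hold the −log10 of the global IDR, deposited by the authors and capped at 5. No source used here names the peak caller or the aligner, and read depth is unknown. Summits were compared with the TSS of protein-coding genes of Ensembl release 115. Sequences came from the RefSeq copy of the dm6 assembly. All 47 genes were also found by symbol in the RefSeq gene table, with positions within 1000 bp at both ends. Python 3.11.15, pandas 2.3.3 and numpy 2.4.6 were used.

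The design has 1 group and no contrast, so lists were described by counts beside all protein-coding genes, without tests. The members and lists were chosen with earlier results of these data known. Every member was to be named: bound ones with signal, offset and IDR, unbound ones with their strongest ranked promoter peak or the nearest passing summit. Of other genes, those with a TSS within 500 bp of a bound member's summit were named, and the genes of the list of other machinery. The assignment of summits to genes was tested on simulated data, where 200 of 200 planted genes were recovered. Alternatives were the conservative list, the stronger 50% of peaks, each replicate, other distances, TSS sets and IDR limits, and summits given to their nearest gene. Leaving out genes within 50 or 100 kb of CG11247 and the division by head-to-head neighbours were added after seeing the data.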

Additional observations from a re-analysis of the deposited data

Results flagged for a closer look

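The TfIIA-S promoter peak has a signal of 305.7 and is past the IDR limit in the pooled ranked list and in the ranked lists of both replicates, but is in none of the thresholded lists, so the counts of bound genes leave it out. It is named here because it is a signal in data that those counts do not use. The nearest passing summit is 3876 bp from the TfIIA-S TSS. Of the 151 such pooled peaks, 118 lie on the chromosome arms, and counting them adds 54 bound genes in the genome.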

How the results depend on the processing

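Of 71 values recomputed under an alternative, 53 stayed within 1.5 times the count or 1 SD of the replicates, and 18 did not. These numbers do not measure stability. Leaving out testis paralogues (14 of 45 bound) or genes without a ranked promoter peak (14 of 40) removed only unbound genes, so those counts could not move. The SD also came from the same replicate values that were set against it. Giving each summit to its nearest gene left 5 of the 47 genes (2 of Pol II, 1 of TFIID, 2 of TFIIH and 0 of the remaining factors), a share below that of all genes. Peaks that cover a TSS gave 9 genes in all, or 19.1% beside 11.0% of all genes, and 0 of the remaining factors. Genes without a head-to-head neighbour alone gave 2 bound of 18, or 11.1% beside 10.8% of all such genes. The smaller set by itself lowers this count. In TFIIH the stronger 50% of peaks left 2 genes, and the replicates alone gave 2 to 3. The remaining factors had 1 bound gene at 200 bp and with the outermost 5′ end, and 1 to 2 in the replicates alone. Leaving out the genes within 50 or 100 kb of CG11247 left 13 and 12 bound genes. The median place of bound genes in their list, 25.9% from the top, was 17.2 to 44.8% in the replicates alone. The median summit position was -141.0 bp in the conservative list, -131.0 bp at both 200 and 1000 bp, and between -146.0 and -141.5 bp in the replicates alone. The causes of these changes were not tested beyond the construction of each alternative. No paired analysis was possible because there is 1 group and no test. Few genes per complex and the unknown depth limit the precision.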
